A study of Mus musculus with 12 samples.

Results

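Described here are 10 genes of calcium entry and calmodulin signalling, taken by gene symbol from the platform annotation of the array. The annotation named a probe set by a single symbol for 9 of the 10, out of 18820 genes so named. Itpr1 is not named there and was not analysed here. For Orai2, which had 2 probe sets, the one with the higher mean over the 12 arrays was used. At least 3 of the genes were chosen by log2 differences measured earlier on these arrays. Cacna1e and Camkv had been seen among the larger changes on loss of the B-cell receptor (BCR) in untreated cultures, and Cacna2d4 among those with CHIR99021 in BCR-positive cells. How Pcp4 was chosen is not recorded, so its values are also given as a description. Stim1, Stim2, Orai1, Orai2 and Itpr2 belong to store-operated calcium entry and calcium release. How these were chosen is not recorded either, so their tests may not be independent of the choice.

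The cells were primary B lymphoma cultures from λ-MYC;B1-8f mice of strain C57BL/6J x BALB/c, which carry a MYC transgene and a heavy-chain variable region flanked by sites for Cre. The cultures were given TAT-Cre, a form of this recombinase able to cross the cell membrane. Cells of a lymphoma with and without the receptor then grew side by side for 4 days, and the BCR-positive cells had met the enzyme too. The 4 groups were BCR-positive untreated, BCR-negative untreated, BCR-positive with CHIR99021 and BCR-negative with CHIR99021, an inhibitor of the kinase GSK3, each with 1 array from each of lymphomas 2564, 2646 and 2676. The sources used here give no dose of CHIR99021 and no age or sex of the mice. Each lymphoma is a separate tumour, and n = 3 lymphomas for every mean and difference below.

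When antigen engages the BCR, phospholipase C gamma makes inositol trisphosphate, which opens IP3 receptors (the Itpr genes) in the endoplasmic reticulum. STIM proteins sense the emptied store and open ORAI channels in the plasma membrane, and the calcium that enters binds calmodulin, which switches on calcineurin and calmodulin-dependent kinases. Voltage-gated channels such as that built on Cacna1e are best known from neurons and endocrine cells, as are Camkv, a kinase-like protein that binds calmodulin but lacks kinase activity, and Pcp4, a small protein that tunes calmodulin.

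To show the start regions of the genes, promoter sequences (250 bases before to 50 after the start) were taken from RefSeq, build GRCm38.p6, which held 8 of the 10 genes. They were searched on both strands for TGTTTAC (FOXO factors), CACGTG (the E-box that MYC binds), TGGAAA (the core that NFAT factors bind) and CTTTGAT (TCF/LEF factors), which do not overlap in the sequences shown. These letters occur in 3.65%, 7.15%, 21.4% and 3.73% of all 32851 promoters of the same 300 bases. Of the 8 genes, Orai2 held CACGTG at positions -84 and -51 relative to the start and Pcp4 held TGGAAA at -58. The other 6 held none of the 4 motifs in this window. The 3 sequences below are those of Cacna1e, which varied most between the groups, and of the genes with a match, whose bases are in capitals. They lie at chr1:154725871-154726170 (minus strand), chr16:96467356-96467655 (plus strand) and chr5:136170607-136170906 (minus strand).
Cacna1e: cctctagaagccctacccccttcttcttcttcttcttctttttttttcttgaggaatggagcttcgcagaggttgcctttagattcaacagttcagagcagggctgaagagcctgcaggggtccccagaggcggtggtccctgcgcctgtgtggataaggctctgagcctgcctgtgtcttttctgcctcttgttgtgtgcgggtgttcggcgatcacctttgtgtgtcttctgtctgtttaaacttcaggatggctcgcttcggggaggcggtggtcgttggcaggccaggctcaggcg
Pcp4: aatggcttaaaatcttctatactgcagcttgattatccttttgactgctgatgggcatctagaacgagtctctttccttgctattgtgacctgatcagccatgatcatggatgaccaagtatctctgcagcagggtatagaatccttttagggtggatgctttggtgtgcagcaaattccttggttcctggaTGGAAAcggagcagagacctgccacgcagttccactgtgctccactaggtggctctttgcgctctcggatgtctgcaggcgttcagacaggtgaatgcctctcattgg
Orai2: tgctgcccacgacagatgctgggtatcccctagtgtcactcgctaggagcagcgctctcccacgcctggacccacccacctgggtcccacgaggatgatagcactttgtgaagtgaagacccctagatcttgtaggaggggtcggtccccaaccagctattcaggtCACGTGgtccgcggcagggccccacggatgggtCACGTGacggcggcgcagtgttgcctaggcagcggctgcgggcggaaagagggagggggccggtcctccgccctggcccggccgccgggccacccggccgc
The number of CpG pairs was 11 in the Cacna1e promoter and 6 in that of Pcp4. It was 24 to 39 in the other 6 (Orai2 24, Camkv 25, Itpr2 26, Orai1 36, Stim1 38 and Stim2 39), and the median over all promoters was 7.

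All levels are log2 expression values as deposited, and differences are mean log2 differences within lymphomas ± standard error (SE) from limma, a linear model fitted over all genes. A gene is called when its p, adjusted by Benjamini-Hochberg over the 18820 genes, is under 0.05. The array medians lay between 4.71 and 4.92. Ighv1-72, the variable segment that is deleted, was lower after BCR loss in every lymphoma, with differences of -1.66, -1.39 and -3.28 in untreated and -2.74, -2.46 and -3.66 in CHIR99021 cultures of 2564, 2646 and 2676. The signal did not vanish. In BCR-negative cells it was still 8.60, 9.12 and 7.10 untreated and 7.26, 8.17 and 6.56 with CHIR99021, above the array medians. The source of this remaining signal was not tested. Of 7 measured B-cell markers, 6 lay above the 30th percentile of gene means (4.12), Cd79a, Cd79b, Pax5, Ebf1, Cd22 and Ptprc, while Ms4a1 (3.24) lay below it. Above that level were 2 of 6 T-cell, 3 of 7 myeloid, 2 of 2 erythroid and 5 of 8 stromal and endothelial markers. The highest among these were Pecam1 (8.61), Itgam (6.32) and Csf1r (6.27). Of all these markers, Cd79b and Lyz2 were the ones called in any of the 5 comparisons, both for CHIR99021 in BCR-negative cells (limma, adjusted p = 0.0240 and 0.0388), where the level of Lyz2 was 3.76 over all arrays. All 9 genes had means above the 30th percentile.

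**Figure D1:**
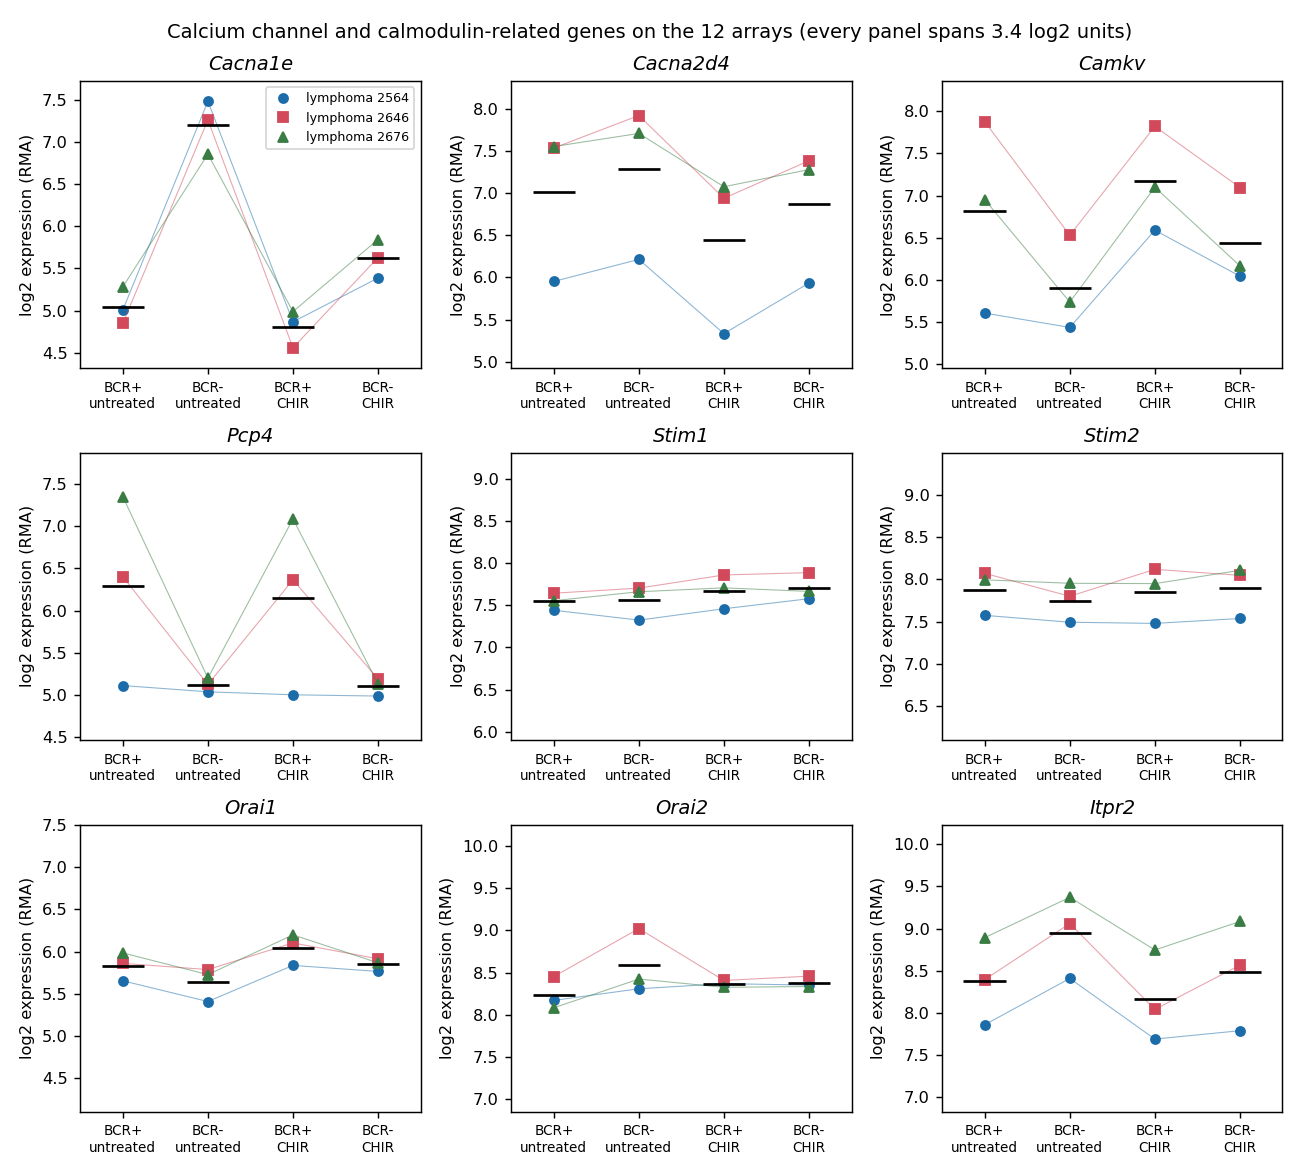
Log2 expression of the 9 genes on the 12 arrays, by group, with a colour and symbol for each lymphoma, thin lines joining arrays of a lymphoma and black bars for group means. Cacna1e stands highest in the 3 untreated BCR-negative arrays (6.85 to 7.48), and Pcp4 is near 5 in all arrays of lymphoma 2564 and in all BCR-negative arrays.

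Cacna1e encodes the pore-forming subunit of R-type voltage-gated calcium channels. In untreated BCR-positive cells its level was 5.01, 4.85 and 5.28 in lymphomas 2564, 2646 and 2676. In untreated BCR-negative cells it was 7.48, 7.26 and 6.85 in the same order. With CHIR99021 it was 4.87, 4.56 and 4.99 in BCR-positive cells, and 5.39, 5.63 and 5.84 in BCR-negative cells. The untreated BCR-negative arrays thus stood above all other arrays, and the treated BCR-negative arrays lay between them and the BCR-positive ones. The BCR-positive values lay near the array medians (4.71 to 4.92), where a fall with CHIR99021 could hardly show. The difference on BCR loss in untreated cultures, which is why the gene was chosen, was 2.15 ± 0.180, or 4.44-fold. In sorted bulk RNA, a larger share of cells with the transcript and more transcript per cell cannot be told apart.

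The CHIR99021 cultures used none of the arrays of that comparison, but came from the same lymphomas. The SE, interval and p pool the spread over all arrays, including those on which the gene was chosen. In CHIR99021 cultures Cacna1e was higher in BCR-negative cells by 0.81 ± 0.180 (95% interval 0.41 to 1.22). The difference was positive in each lymphoma (0.52, 1.07 and 0.85), and the groups did not overlap. The same holds for 6.32% of all genes in that comparison. The difference did not pass over all genes (limma, adjusted p = 0.410). With CHIR99021 the Cacna1e difference in BCR-negative cells was -2.09, -1.63 and -1.01 in the 3 lymphomas, with a mean of -1.58 ± 0.180, a value that rests on the same untreated BCR-negative arrays as the choice of the gene. In BCR-positive cells the mean difference with CHIR99021 was -0.24 ± 0.180 (limma, adjusted p = 0.738). The effect of BCR loss with CHIR99021 minus that without it was -1.34 ± 0.254 and negative in each lymphoma (-1.95, -1.34 and -0.72), and did not pass over all genes (limma, adjusted p = 0.928). This value contains the untreated difference for which the gene was chosen and is a description. Over the 22 alternatives run for it, the difference ran from -1.64 to -1.03. It passed in 1 of them, without the untreated BCR-negative array of 2676 (limma, adjusted p = 0.0271).

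Cacna2d4 encodes an alpha2delta subunit, which helps to bring voltage-gated channels to the membrane. Its level was 5.95, 7.53 and 7.55 in untreated BCR-positive cells of lymphomas 2564, 2646 and 2676, and 6.21, 7.92 and 7.71 in untreated BCR-negative cells. With CHIR99021 it was 5.33, 6.94 and 7.07 in BCR-positive and 5.93, 7.38 and 7.28 in BCR-negative cells. Lymphoma 2564 was the lowest in every group, the groups overlapped in every comparison, and 85.1% of the sum of squares lay between lymphomas. The fall with CHIR99021 in BCR-positive cells, which is why the gene was chosen, was -0.56 ± 0.0785. BCR-negative cells fell by 0.41 ± 0.0785 with CHIR99021 (limma, adjusted p = 0.0261), and by 0.28, 0.54 and 0.43 in the lymphomas. They were measured on other arrays but grew in the same cultures as the BCR-positive cells on which the gene was chosen. The SE and p also pool the spread over all arrays, including those of the choice. This call is therefore not independent of the choice. That call ended with no block, a random block or only the arrays compared (limma, adjusted p = 0.9996, 0.656 and 0.0933). It ended without lymphoma 2564, 2646 or 2676 (limma, adjusted p = 0.0760, 0.273 and 0.0743), and without 2646 limma called 0 of all genes. It also ended without the treated BCR-negative array of 2564, 2646 or 2676 (limma, adjusted p = 0.0626, 0.107 and 0.0551) and without the untreated one of 2646 (limma, adjusted p = 0.105). On BCR loss Cacna2d4 differed by 0.27 ± 0.0785 in untreated and 0.42 ± 0.0785 in CHIR99021 cultures, and neither passed (limma, adjusted p = 0.0857 and 0.385). Both use BCR-positive arrays on which the gene was chosen and are descriptions.

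Itpr2 encodes an IP3 receptor, the release channel of the calcium store. In untreated BCR-positive cells of 2564, 2646 and 2676 it measured 7.86, 8.40 and 8.89, and in untreated BCR-negative cells 8.41, 9.06 and 9.37. The values with CHIR99021 were 7.69, 8.04 and 8.75 in BCR-positive and 7.79, 8.57 and 9.08 in BCR-negative cells. Within each lymphoma the untreated BCR-negative array was the highest of the 4 and the treated BCR-positive array the lowest, while the groups overlapped because the lymphomas differed (68.9% of the sum of squares). Itpr2 rose on BCR loss in untreated cultures by 0.56 ± 0.0859, or 1.48-fold (limma, adjusted p = 0.0170). It fell with CHIR99021 in BCR-negative cells by 0.47 ± 0.0859 (limma, adjusted p = 0.0241). These 2 calls share the untreated BCR-negative arrays and are not independent of each other. On BCR loss in CHIR99021 cultures the difference was 0.32 ± 0.0859 (limma, adjusted p = 0.457), and with CHIR99021 in BCR-positive cells -0.22 ± 0.0859 (limma, adjusted p = 0.404).

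Both Itpr2 calls depended on the block and on single lymphomas and arrays, but without lymphoma 2646 limma called 0 of all 18820 genes in either comparison. With lymphoma as a random block the rise and the fall had adjusted p = 0.234 and 0.355 in limma, with no block 0.932 and 0.9996, and with only the arrays compared 0.0554 and 0.0933. The rise was not called without lymphoma 2646 or 2676 (limma, adjusted p = 0.194 and 0.109), without the untreated BCR-positive array of 2646 or 2676 (limma, adjusted p = 0.0892 and 0.0799) or without the untreated BCR-negative array of 2646 (limma, adjusted p = 0.0707). The fall was not called without lymphoma 2564, 2646 or 2676 (limma, adjusted p = 0.118, 0.180 and 0.0721). Leaving out the treated BCR-negative array of 2564 or 2646, or the untreated one of 2646, also ended it (limma, adjusted p = 0.119, 0.0737 and 0.1000).

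Stim1 and Stim2 encode the sensors of the endoplasmic reticulum store. Stim1 lay between 7.32 and 7.89 on the 12 arrays and Stim2 between 7.48 and 8.12. In untreated cultures of 2564, 2646 and 2676 Stim1 was 7.44, 7.64 and 7.55 in BCR-positive and 7.32, 7.70 and 7.66 in BCR-negative cells. With CHIR99021 it was 7.46, 7.86 and 7.71, and 7.58, 7.89 and 7.66. The difference in Stim1 on BCR loss was 0.02 ± 0.0618 in untreated cultures (95% interval -0.12 to 0.15; limma, adjusted p = 0.936). With CHIR99021 Stim1 differed by 0.13 ± 0.0618 in BCR-positive cells and 0.15 ± 0.0618 in BCR-negative ones, positive in all 3 lymphomas of each, and neither passed (limma, adjusted p = 0.536 and 0.232).

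Stim2 was 7.58, 8.07 and 8.00 in untreated BCR-positive cells and 7.49, 7.80 and 7.96 in untreated BCR-negative cells of the 3 lymphomas. With CHIR99021 it was 7.48, 8.12 and 7.95, and 7.54, 8.05 and 8.11. Lymphoma 2564 was below the other lymphomas in each group, and 88.3% of the sum of squares lay between lymphomas. Its difference on BCR loss was -0.13 ± 0.0699 in untreated (95% interval -0.29 to 0.03; limma, adjusted p = 0.339) and 0.05 ± 0.0699 in CHIR99021 cultures (limma, adjusted p = 0.885). With CHIR99021 Stim2 differed by -0.03 ± 0.0699 in BCR-positive cells and 0.15 ± 0.0699 in BCR-negative ones (limma, adjusted p = 0.944 and 0.294).

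Orai1 and Orai2 encode the plasma membrane channels that STIM proteins open. Orai1 was 5.65, 5.86 and 5.98 in untreated BCR-positive cells of 2564, 2646 and 2676, and 5.41, 5.79 and 5.73 in untreated BCR-negative cells. With CHIR99021 the values were 5.84, 6.10 and 6.20 in BCR-positive and 5.76, 5.91 and 5.87 in BCR-negative cells. In every lymphoma the BCR-negative value of Orai1 was below the BCR-positive one and the value with CHIR99021 above that without, and the groups overlapped. The differences on BCR loss were -0.19 ± 0.0644 in untreated and -0.20 ± 0.0644 in CHIR99021 cultures. CHIR99021 gave 0.21 ± 0.0644 in BCR-positive cells and 0.21 ± 0.0644 in BCR-negative ones. None of the 4 passed over all genes (limma, adjusted p = 0.122, 0.508, 0.278 and 0.107).

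Orai2 was 8.17, 8.45 and 8.08 in untreated BCR-positive cells of 2564, 2646 and 2676 and 8.31, 9.02 and 8.42 in untreated BCR-negative cells. With CHIR99021 it lay between 8.33 and 8.46 on all 6 arrays. The untreated BCR-negative array of 2646 was the highest of the 12. Orai2 differed on BCR loss by 0.35 ± 0.113 in untreated cultures (0.14, 0.57 and 0.34 in the lymphomas; limma, adjusted p = 0.111) and by 0.01 ± 0.113 in CHIR99021 cultures (limma, adjusted p = 0.983). With CHIR99021 it differed by 0.13 ± 0.113 in BCR-positive cells and -0.20 ± 0.113 in BCR-negative ones (limma, adjusted p = 0.781 and 0.393). The other probe set of Orai2 gave 0.32, 0.02, 0.09 and -0.20 in the same 4 comparisons. The untreated difference passed in 1 of 23 alternatives, without the untreated BCR-negative array of 2564 (limma, adjusted p = 0.0392).

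Camkv measured 5.61, 7.87 and 6.95 in untreated BCR-positive cells of 2564, 2646 and 2676, and 5.44, 6.53 and 5.74 in untreated BCR-negative cells. With CHIR99021 it was 6.59, 7.82 and 7.10 in BCR-positive and 6.05, 7.10 and 6.17 in BCR-negative cells. Every BCR-negative array was below the BCR-positive array of the same culture, and the groups overlapped. The difference on BCR loss in untreated cultures, for which the gene was chosen, was -0.91 ± 0.214 and was small in lymphoma 2564 (-0.17, against -1.34 in 2646 and -1.21 in 2676). In CHIR99021 cultures, on other arrays of the same lymphomas, it was -0.73 ± 0.214 (95% interval -1.21 to -0.25). The lymphomas gave -0.55, -0.72 and -0.93, and the mean did not pass (limma, adjusted p = 0.473). The SE, interval and p pool the spread over all arrays, including those on which Camkv was chosen. With CHIR99021 Camkv differed by 0.53 ± 0.214 in BCR-negative cells (0.61, 0.57 and 0.43), which did not pass (limma, adjusted p = 0.208). In BCR-positive cells the mean was 0.36 ± 0.214 (limma, adjusted p = 0.649), with 0.98 in lymphoma 2564, -0.06 in 2646 and 0.15 in 2676. Both of these comparisons with CHIR99021 use the untreated arrays on which Camkv was chosen and are descriptions.

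Pcp4 differed between the lymphomas more than a mean can show. In untreated BCR-positive cells it was 5.11 in lymphoma 2564, 6.40 in 2646 and 7.35 in 2676. In untreated BCR-negative cells it was 5.04, 5.12 and 5.20. With CHIR99021 the BCR-positive values were 5.002, 6.36 and 7.08 and the BCR-negative values 4.99, 5.19 and 5.13. All 6 BCR-negative arrays and both BCR-positive arrays of 2564 thus lay between 4.99 and 5.20, and the 4 BCR-positive arrays of 2646 and 2676 lay above 6. The difference on BCR loss was -1.28 (2.42-fold) in 2646 and -2.15 (4.43-fold) in 2676 without inhibitor, and -1.17 and -1.95 with it. In 2564 the differences were -0.07 and -0.01. The BCR-positive values of 2564 were already close to the array medians (4.71 to 4.92), so a fall there could hardly show. The means were -1.17 ± 0.379 in untreated and -1.05 ± 0.379 in CHIR99021 cultures and did not pass (limma, adjusted p = 0.112 and 0.530). Without lymphoma 2564 the untreated mean was -1.71 and without its untreated BCR-negative array -1.53 (limma, adjusted p = 0.0165 and 0.0486). Of 23 alternatives, the untreated difference passed in these 2 only. With CHIR99021 Pcp4 differed by -0.14 ± 0.379 in BCR-positive cells and -0.02 ± 0.379 in BCR-negative ones, and no single lymphoma moved by more than 0.26.

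Cacna1e, Camkv and Pcp4 are known from neurons, so the neuronal marker list was measured beside them. Of its 7 measured markers Syt1 (4.49), Map2 (7.45) and Gap43 (4.40) lay above the 30th percentile of gene means. Snap25 (3.70), Rbfox3 (3.79), Nefl (3.47) and Stmn2 (3.89) lay below it. The summed log2 level of the 7 was 30.1 to 31.9 in untreated BCR-positive, 30.4 to 31.6 in untreated BCR-negative, 29.7 to 32.0 in treated BCR-positive and 30.5 to 31.8 in treated BCR-negative cells. None of the 7 was called in any of the 5 comparisons (limma, adjusted p of 0.117 or more).

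**Figure D2:**
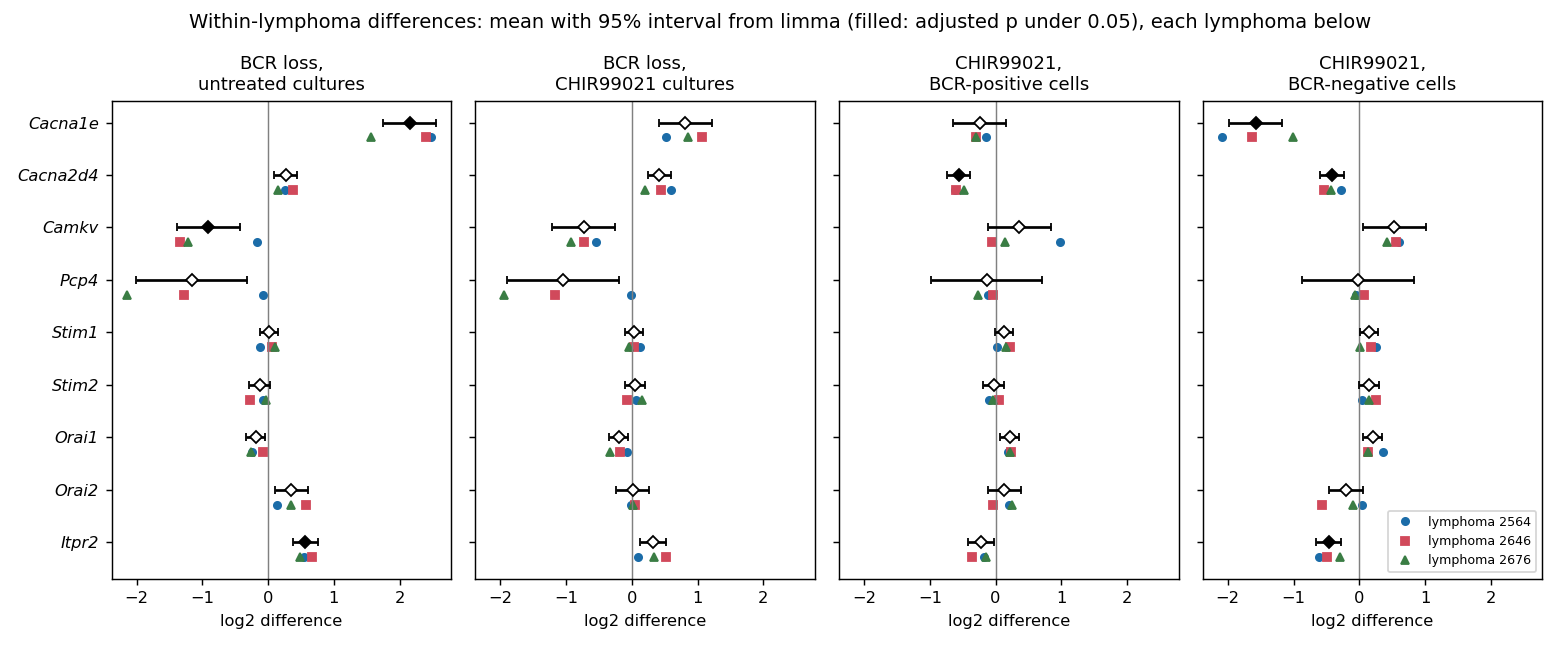
Log2 differences of the 9 genes in the 4 comparisons, with the mean and 95% interval from limma (diamonds, filled where the adjusted p is under 0.05) and each lymphoma's own difference as a coloured symbol below. On BCR loss in untreated cultures Pcp4 shows differences of -0.07, -1.28 and -2.15 in the 3 lymphomas and Camkv -0.17, -1.34 and -1.21, and the intervals of Stim1 on BCR loss include 0.

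Over the 9 genes, 3 were called on BCR loss in untreated cultures, where 4.2% of all genes were. Cacna1e and Itpr2 were higher (1.91% of all genes) and Camkv lower (2.3%). With CHIR99021 in BCR-negative cells 3 were called, all lower (Cacna1e, Cacna2d4 and Itpr2), against 3.68% of all genes, 1.91% higher and 1.76% lower. With CHIR99021 in BCR-positive cells only Cacna2d4 was called, and it was lower, against 0.0744% of all genes, 0.00531% higher and 0.0691% lower. On BCR loss in CHIR99021 cultures limma called 0 of the 9, against 0.0159% of all genes, 0.0106% higher and 0.00531% lower. For the interaction limma also called 0, against 0% of all genes. At an unadjusted p under 0.05 in limma were 7 of the 9 on BCR loss in untreated cultures (20.5% of all genes), 6 in CHIR99021 cultures (8.65%), 3 with CHIR99021 in BCR-positive cells (10%), 6 in BCR-negative cells (19.0%) and 1, Cacna1e, for the interaction (5.26%). All 3 lymphomas had the same sign for 8, 6, 6 and 7 of the 9 in the first 4 of these comparisons, against 39.9%, 31.7%, 35.4% and 37.2% of all genes. The groups did not overlap for 1 of the 9, Cacna1e, in 3 comparisons: BCR loss in untreated cultures (11.0% of all genes), BCR loss in CHIR99021 cultures (6.32%) and CHIR99021 in BCR-negative cells (8.65%). They overlapped for all 9 with CHIR99021 in BCR-positive cells (7.35% of all genes did not). Because genes were chosen with these comparisons in view, nothing is read from these counts. The median difference of the 9 was 0.02, 0.03, -0.03 and -0.02 in the 4 comparisons, and that of all genes was 0.00, 0.00, 0.00 and 0.01.

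Leaving out lymphoma 2646 ended all 7 calls, but limma then called 0 of all genes in every comparison. That loss is therefore not particular to these genes. Those of Cacna1e, Camkv and Cacna2d4 in the comparisons that chose them are descriptions, and what follows says only where they ended. Cacna1e was not called on BCR loss in untreated cultures without lymphoma 2646 (limma, adjusted p = 0.136) or with only the arrays compared (limma, adjusted p = 0.0525). It was not called with CHIR99021 in BCR-negative cells without lymphoma 2646, with no lymphoma block or with only the arrays compared (limma, adjusted p = 0.141, 0.0542 and 0.0620). The Camkv call ended with no block, a random block, only the arrays compared or cyclic loess (limma, adjusted p = 0.897, 0.220, 0.142 and 0.0542). It also ended without lymphoma 2646 or 2676 (limma, adjusted p = 0.411 and 0.283) and without any of 8 single arrays. Of these, the untreated BCR-positive arrays of 2646 and 2676 gave adjusted p = 0.188 and 0.184 in limma, and the untreated BCR-negative ones 0.168 and 0.119. The other 4 were the treated BCR-positive arrays of 2564, 2646 and 2676 (limma, adjusted p = 0.0580, 0.0692 and 0.0686) and the treated BCR-negative array of 2646 (limma, adjusted p = 0.0747). Cacna2d4 was called with CHIR99021 in BCR-positive cells in none of the 3 fits without a lymphoma (limma, adjusted p = 0.210 to 0.302) or without an array of that comparison (limma, adjusted p = 0.105 to 0.232). Leaving out the treated BCR-negative array of 2646 or the untreated one of 2676 also ended it (limma, adjusted p = 0.104 and 0.0536).

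The genes differed in how much of their variation lay between groups. For Cacna1e 95.4% of the sum of squares lay between the 4 groups and 0.53% between lymphomas. The share between groups was 52.7% for Orai1, 43.6% for Pcp4, 36.2% for Camkv, 33.0% for Orai2, 28.8% for Itpr2, 19.9% for Stim1, 14.1% for Cacna2d4 and 5.59% for Stim2. The range over the 12 arrays was 2.92 for Cacna1e, 2.58 for Cacna2d4, 2.44 for Camkv, 2.36 for Pcp4 and 1.68 for Itpr2, and 0.56 to 0.94 for Stim1, Stim2, Orai1 and Orai2. After subtraction of each lymphoma's mean, Cacna1e and Itpr2 correlated over the 12 arrays at r = 0.968, Itpr2 and Cacna2d4 at 0.843, and Camkv and Pcp4 at 0.783. Cacna1e and Camkv correlated at -0.843, and Itpr2 and Orai1 at -0.889. These are descriptions of 12 arrays that share lymphomas and groups. Cacna1e, Camkv and Cacna2d4 were chosen by differences on these same arrays. Their shares between groups and their correlations are therefore not independent of the choice.

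**Figure D3:**
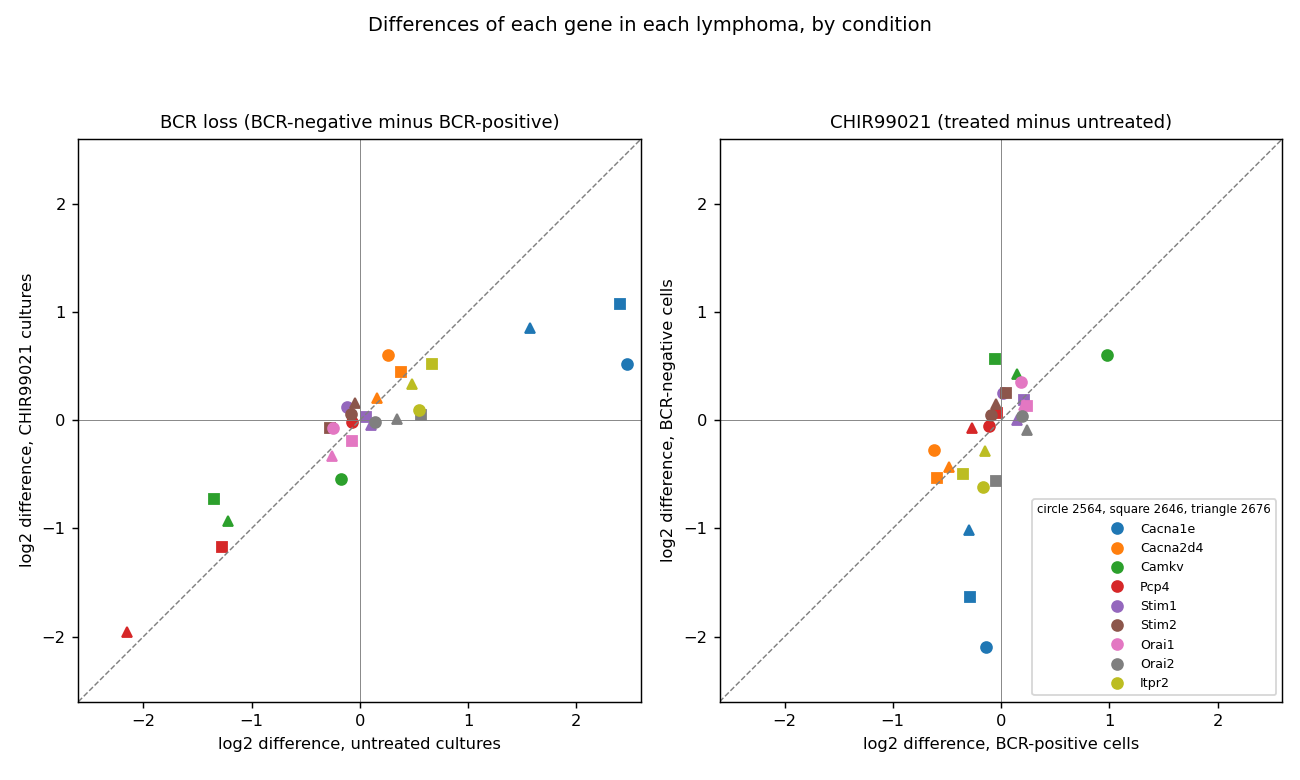
Log2 difference of each gene (colour) in each lymphoma (symbol), with BCR loss in untreated against CHIR99021 cultures on the left and CHIR99021 in BCR-positive against BCR-negative cells on the right; the dashed line marks equal differences. Cacna1e lies off the line on both sides, at 1.57 to 2.47 against 0.52 to 1.07 on the left, while Pcp4 follows it in each lymphoma.

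By the same centred correlation, the 3 genes most like Cacna1e among all 18820 were Prkd2 (r = 0.984), Dcaf6 (0.982) and Carmil1 (0.973). For Cacna2d4 they were Ift52 (0.963), Lrrc61 (0.943) and Acbd3 (0.942), for Camkv Scd2 (0.976), Cops8 (0.971) and Psmc5 (0.965), and for Pcp4 Oaf (0.954), Pstpip2 (0.952) and Thoc5 (0.950). The likeness is of shape only: the centred values of Scd2 and Cops8 spanned 0.24 and 0.23.

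Other genes of calcium signalling were counted in 7 lists, of which 114 of 126 genes were measured. On BCR loss in untreated cultures 3 rose and 4 fell, and 107 did not pass (list median 0.03, against 4.2% of all genes called). Those that rose were Plcg1 (0.41 ± 0.0932), phospholipase C gamma 1, Ppp3ca (0.41 ± 0.0885), a catalytic subunit of calcineurin, and Camkk2 (0.29 ± 0.0597), a kinase that activates calmodulin-dependent kinases. Plcg2, phospholipase C gamma 2, differed by -0.25 and did not pass (limma, adjusted p = 0.140). Neither did the calcineurin subunits Ppp3cb (0.02) and Ppp3cc (0.19; limma, adjusted p = 0.912 and 0.215). Those that fell were Cacna1h (-0.56 ± 0.0998), the pore of a T-type channel, Letm1 (-0.42 ± 0.0970) and Mcu (-0.39 ± 0.0624) of the mitochondrial inner membrane, Mcu being the pore of the calcium uniporter, and Tmco1 (-0.32 ± 0.0697), which releases calcium from overfilled stores. Their adjusted p in limma lay between 0.0191 (Mcu) and 0.0464 (Letm1), and for each gene all 3 lymphomas agreed in sign. Each was called in 6 (Letm1) to 15 (Mcu) of 23 alternatives. None of the 7 was called with a random block (limma, adjusted p = 0.0928 to 0.561), with no block (limma, adjusted p = 0.495 or more) or with only the arrays compared (limma, adjusted p = 0.0610 to 0.144). None of the 7 was called without lymphoma 2646 (limma, adjusted p = 0.160 to 0.362), where 0 of all genes were. Without 2676 none of them was called either (limma, adjusted p = 0.0651 to 0.231), and without 2564 only Plcg1, Ppp3ca and Camkk2 were. By list, 1 of 21 voltage-gated subunits fell, 1 of 22 store genes rose and 1 fell, 2 of 18 pumps, exchangers and mitochondrial genes fell, 1 of 14 kinases and 1 of 14 calcineurin and NFAT genes rose. None of 12 calmodulins and binding proteins or of 13 other channels passed. At an unadjusted p under 0.05 in limma were 27 of the 114, against 20.5% of all genes. These were 5 voltage-gated subunits, 5 store genes and 5 pumps, exchangers and mitochondrial genes. The rest were 2 calmodulins and binding proteins, 2 kinases, 7 calcineurin and NFAT genes and 1 other channel. The lists were chosen with earlier results of these data known, and nothing is read from these counts.

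With CHIR99021 in BCR-negative cells 3 of the 114 rose and 2 fell (median 0.01), against 1.91% of all genes called higher and 1.76% lower. Tmco1 (0.35 ± 0.0697), Mcu (0.31 ± 0.0624) and Kcnn4 (0.35 ± 0.0716), a potassium channel that calcium and calmodulin open, rose. Camkk2 (-0.32 ± 0.0597) and Iqgap1 (-0.29 ± 0.0619), a scaffold that binds calmodulin, fell, with adjusted p in limma of 0.0241 (Camkk2) to 0.0388 (Iqgap1). These calls held in 7 (Mcu) to 13 (Camkk2) of 23 alternatives. Without lymphoma 2564, 2646 or 2676 none of them held (limma, adjusted p = 0.0594 to 0.326), and without 2646 limma called 0 of all genes. None held with a random block (limma, adjusted p = 0.109 to 0.702), no block (limma, adjusted p = 0.837 or more) or only the arrays compared (limma, adjusted p = 0.0983 to 0.135). The untreated BCR-negative arrays enter both this and the preceding comparison, and the values of Camkk2, Mcu and Tmco1 in the 2 are therefore not independent. The other 3 comparisons had 0 of the 114 called in limma, with 12 at an unadjusted p under 0.05 for BCR loss in CHIR99021 cultures, 16 for CHIR99021 in BCR-positive cells and 4 for the interaction, against 8.65%, 10% and 5.26% of all genes. The smallest p there were those of Ppp3ca (0.34 ± 0.0885) and Letm1 (-0.37 ± 0.0970), of Kcnn4 (0.38 ± 0.0716) and Cacna1h (-0.52 ± 0.0998), and of Mcu (0.34 ± 0.0882) and Camkk2 (-0.32 ± 0.0844), in that order (limma, adjusted p = 0.457, 0.103 and 0.928).

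**Figure D4:**
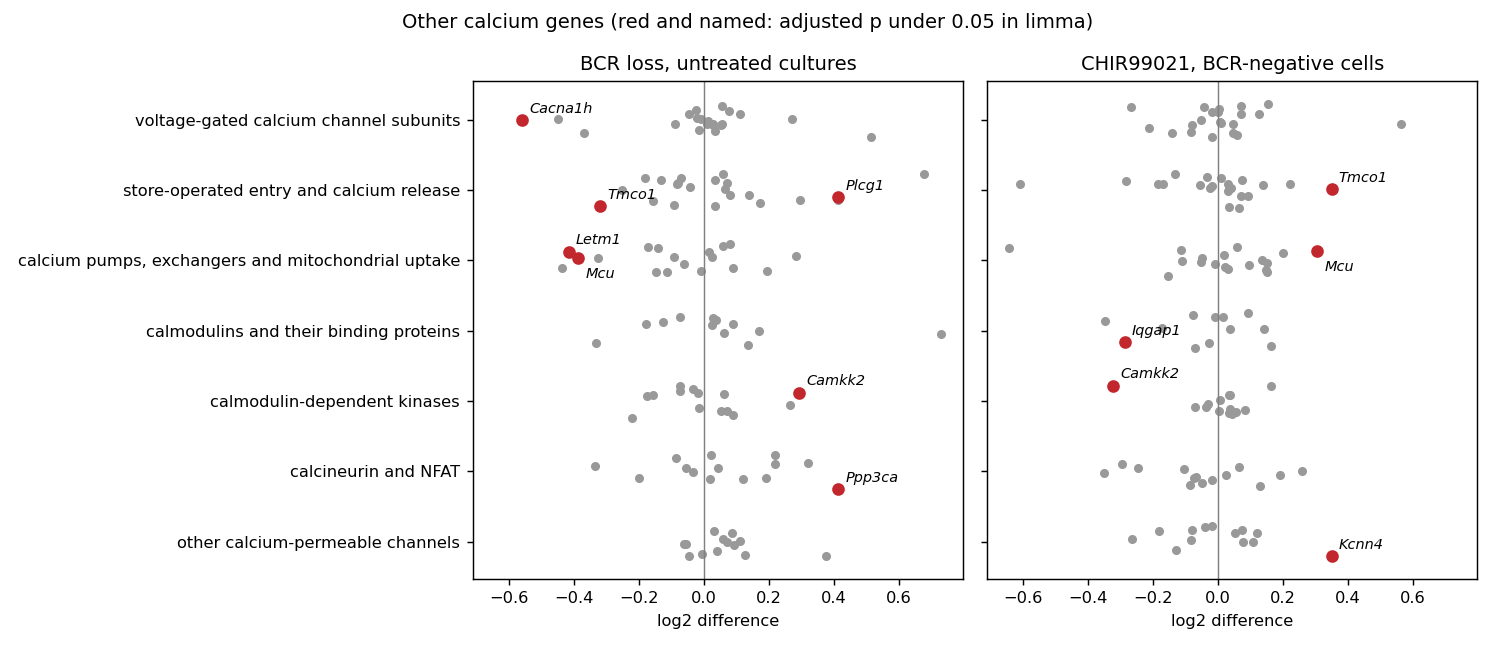
Log2 differences of the 114 measured calcium genes by list, on BCR loss in untreated cultures (left) and with CHIR99021 in BCR-negative cells (right); red points with names have an adjusted p under 0.05 in limma. The 7 named genes on the left lie between -0.56 and 0.41, and most genes of every list lie near 0.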

How the data were processed

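Mouse Gene 1.1 ST arrays were measured, and the authors deposited 1 log2 value for each probe set and array. The submitters' processing notes name RMA and Affymetrix Power Tools. No version or genome build is given in the sources used here. RMA brings the arrays' distributions close together, so a shift common to most genes would not show in full. The array medians of the deposited values still lay between 4.71 and 4.92. Of 35556 probe sets, 21218 had 1 gene symbol in the platform annotation (1881 had several and 12457 were not named). The probe set with the highest mean stood for a gene, which left 18820 genes. Arrays of a lymphoma correlated at r of 0.988 to 0.997. No 2 arrays were identical. With arrays, their number limits the precision.

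A linear model with group and lymphoma as a block was fitted to all 12 arrays with limma 3.58.1 in R 4.3.3 with 6 residual degrees of freedom. P-values came from eBayes and were adjusted by Benjamini-Hochberg across all genes. The pairing comes from the lymphoma numbers in the labels and from the shared cultures that the design text describes. P-values set a mean difference against the spread left in a gene once group and lymphoma are taken out. That spread is pooled over all 12 arrays and moderated over all genes by eBayes. A gene therefore has the same SE in each comparison but the interaction, whatever the spread of its 3 lymphomas there. The 5 comparisons were BCR loss without and with CHIR99021, CHIR99021 in cells with and in cells without the BCR, and their interaction. The script was tested on simulated data. The members, the lists and the motifs were chosen with earlier results of these data known. Named were the members, the calcium genes called in any comparison or, where fewer than 2 were, those with the 2 smallest p, and the 3 genes with the highest correlation over values centred per lymphoma for Cacna1e, Cacna2d4, Camkv and Pcp4, and Ighv1-72. Alternatives were no block or a random one, fits to the compared arrays alone, leaving out dim genes, the mean of probe sets, array medians subtracted, cyclic loess, trend with robust, and leaving out each lymphoma or array. For the other calcium genes they were chosen after seeing the data.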

Additional observations from a re-analysis of the deposited data

How the results depend on the processing

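Calls were fewer without the lymphoma block. With no replicate block, limma called 1 of the 9 genes on BCR loss in untreated cultures in place of 3, 0 in place of 3 with CHIR99021 in BCR-negative cells, and 0 in place of 1 with CHIR99021 in BCR-positive cells. With lymphoma as a random block these were 1, 1 and 0. With only the arrays compared, 0 were called on BCR loss in untreated cultures and 0 with CHIR99021 in BCR-negative cells. After subtraction of array medians, and after cyclic loess, 0 were called with CHIR99021 in BCR-positive cells. Cyclic loess also ended the Camkv call on BCR loss in untreated cultures, leaving 2 in place of 3. Leaving out a lymphoma or an array gave 0 to 5 on BCR loss in untreated cultures, 0 to 4 with CHIR99021 in BCR-negative cells, 0 to 1 in BCR-positive cells, 0 to 1 for the interaction, and 0 in every such fit for BCR loss in CHIR99021 cultures. No called difference changed sign under any alternative, and for those with 1 sign in all 3 lymphomas leaving one out could not change it. The cause of lost calls was not tested, and the fits that leave some out also had fewer arrays. Over all genes, BCR loss in untreated cultures had 359 higher and 432 lower, against 350 and 738 after subtraction of array medians, 448 and 216 after cyclic loess, 48 and 27 with a random block, 3 and 2 with no block and 0 and 0 with only the arrays compared. CHIR99021 in BCR-negative cells had 360 and 332, against 449 and 313, 232 and 415, 23 and 58, 1 and 2, and 1 and 28 in the same order. Without lymphoma 2646 both had 0. CHIR99021 in BCR-positive cells had 1 and 13, against 1 and 11 after subtraction of array medians and 1 and 8 after cyclic loess. The fit with 5 of the 9 left out the untreated BCR-negative array of 2564 and called 569 genes higher and 635 lower. The fit with 4 left out the untreated BCR-positive array of 2564 and called 272 and 309. The interaction fit with 1 left out the untreated BCR-negative array of 2676 and called 0 and 2.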

Other observations

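The lymphoma with the largest fall in the Ighv1-72 signal was not the one with the largest change in Cacna1e. In untreated cultures the Ighv1-72 difference was -1.66 in lymphoma 2564, -1.39 in 2646 and -3.28 in 2676, and that of Cacna1e was 2.47, 2.41 and 1.57 in the same order. That of Pcp4 was -0.07, -1.28 and -2.15. Only 3 lymphomas were measured, and no relation was tested.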
